A study of Homo sapiens with 20 samples.

Results

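Genes that copy DNA and that drive cells from G1 into S phase are described here in A549 cells, a human lung adenocarcinoma line, given extracellular ATP (eATP) or TGF-β, inducers of epithelial mesenchymal transition. The set was a list of 41 genes matched by gene name in the table of 58825 rows, and each name occurred once. All 41 passed the rule of at least 0.1 FPKM in 4 or more of the 20 libraries, as did 20094 genes in all. FPKM is the number of fragments scaled to transcript length and to the reads of the library. The 20 libraries of poly(A) RNA formed 5 groups of 4: eATP at 0.5 mM for 2 or for 6 hours, TGF-β at 10 ng/ml for the same times, and untreated controls. The labels name no genetic change in any group. Cells were grown in DMEM with fetal bovine serum, and the controls carry no collection time. Neither the labels nor the methods say whether the 4 libraries of a group are separate cultures, and p-values measure the spread among them, which could be technical.

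Replication is prepared in G1, when the origin recognition complex, CDC6 and CDT1 load the MCM2-7 helicase onto DNA. In S phase, CDC45 and the GINS complex join the loaded helicase to unwind DNA, and primase, the polymerases, the PCNA clamp and its RFC loader copy the strands. Transcription of many of these genes is periodic and is controlled by E2F factors, which the retinoblastoma protein holds back until cyclin-dependent kinases phosphorylate it. TGF-β is known to arrest many epithelial cells in G1.

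Since E2F factors are known to bind near the start sites of such genes, the promoters were searched for their sites. RefSeq windows (GRCh38.p14) from 250 bases before to 50 bases after the start were at hand for 36 members, 47 windows in all, and none was used for MCM4, MCM5, POLD3, DSCC1 and E2F8. The 4 letter strings searched on both strands were TTTCCCGC, TTTCGCGC, TTTGCCGC and TTTGGCGC, and a match on one strand can share bases with a match on the other. At least one string was in 22 of the 47 windows of the members (46.8%), against 1164 of 35093 windows of all genes (3.32%). The CCAAT pentamer, searched likewise on both strands, was in 30 of the 47 windows (63.8%), against 12144 of all windows (34.6%). The windows of all genes were not filtered by expression, while every member passed the filter. Counted by gene among tested genes with a window, 720 had at least one of the 4 strings and 10495 had none, and of the members 21 and 15. The stretches below come from members named in the results, with TYMS beside them as a gene with a match that edgeR's test called in no comparison. Each is given 5′ to 3′ on the strand of its gene with the matches in capitals, the first running from 160 to 71 bases before the start of MCM6 and the others over the 60 bases before the start.
MCM6: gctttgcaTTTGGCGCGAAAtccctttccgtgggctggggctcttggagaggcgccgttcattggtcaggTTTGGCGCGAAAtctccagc
E2F2: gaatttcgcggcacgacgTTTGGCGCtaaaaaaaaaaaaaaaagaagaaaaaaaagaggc
E2F1: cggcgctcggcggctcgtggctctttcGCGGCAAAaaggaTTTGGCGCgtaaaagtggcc
CDT1: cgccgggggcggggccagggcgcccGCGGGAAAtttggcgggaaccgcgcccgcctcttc
CDC25A: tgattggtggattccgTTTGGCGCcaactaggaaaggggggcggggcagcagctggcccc
TYMS: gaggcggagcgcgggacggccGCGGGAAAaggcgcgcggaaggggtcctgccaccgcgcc
The MCM6 stretch lies on the minus strand at chr2:135876514-135876603, and the capitals there take in overlapping matches on both strands. E2F2 (chr1:23531234-23531293), E2F1 (chr20:33686386-33686445) and CDC25A (chr3:48188418-48188477) are also on minus strands, while CDT1 (chr16:88803729-88803788) and TYMS (chr18:657593-657652) are on plus strands. A match is a string of letters and not a measured binding site. Nor does a printed stretch mark a firm call. EdgeR called CDC25A only between the inducers at 6 hours. The call of CDT1 at 6 hours of TGF-β against the controls was lost without any one library. Of the 21 members with a match in a window, 14 were lower at 6 hours of TGF-β by the edgeR test described below, and of the 15 members with a window and no match, 6 were. Over all tested genes with a window, members included, 13.9% of 720 with a match and 9.89% of 10495 without one were lower there. Over all 20094 tested genes the share was 7.76%, and whether the members with and without a match differ was not tested.

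Total counts per library were 56187614 to 75050437, lowest in the TGF-β 6 h group (median 63335464.5), and the members had 257 (E2F2) to 46640 (PCNA) counts in a library. AKR1B10, an aldo-keto reductase high in A549, had 1856 to 3085 FPKM, the keratin KRT18 659 to 1245 FPKM and EPCAM 4.48 to 6.99 FPKM, while CDKN2A, which A549 cells have lost, had a count of 0 in every library. Summed FPKM of 6 fibroblast markers was 6.09 to 6.93 and 14.9 to 18.1 at 2 and 6 hours of TGF-β, 1.45 to 1.94 and 0.892 to 1.30 at 2 and 6 hours of eATP, and 1.22 to 1.60 in the controls. COL1A1 alone reached 1 FPKM, while COL1A2, DCN and PDGFRB stayed at or below 0.0185 FPKM, and PTPRC and CD3E of the immune list at or below 0.00931 FPKM. Summed FPKM of 4 endothelial markers was 0.271 to 0.543 and 0.266 to 0.388 at 2 and 6 hours of eATP, 0.128 to 0.239 and 0.0391 to 0.169 at 2 and 6 hours of TGF-β, and 0.0910 to 0.177 in the controls. CDH5 carried that sum and was called at 2 hours of eATP (log2(FC) 1.37, edgeR adjusted p = 0.0250), while PECAM1, VWF and KDR stayed at or below 0.0671 FPKM. The 5 epithelial markers summed to 1384 to 1593 and 1302 to 1539.7 FPKM at 2 and 6 hours of eATP, 1302 to 2379 and 1523 to 1739 FPKM at 2 and 6 hours of TGF-β, and 1304 to 1541 FPKM in the controls. KRT8, KRT18 and KRT7 carried these sums, while EPCAM and CDH1 had at most 6.99 and 15.3 FPKM. Against the controls, CDH1 had a log2(FC) of 0.25, then -0.80, over the eATP times and 0.052, then -1.09, over the TGF-β times. EdgeR called none of these 4 changes of CDH1. At 6 hours of TGF-β edgeR called 1 of the 5 markers higher, and DESeq2 called 1 higher and 1 lower. The 9 genes of the A549 check summed to 4656 to 5023 and 4543 to 4941 FPKM at 2 and 6 hours of eATP, 4359 to 5732 and 3847 to 4166 FPKM at 2 and 6 hours of TGF-β, and 4785 to 5377 FPKM in the controls, so that the libraries at 6 hours of TGF-β lay below all others. Of the immune list, CD68 had 1.79 to 6.22 FPKM and CD14 up to 5.47 FPKM. The library TGF-β 2 h replicate 1 stood apart, with an SD of its deviations from the group of 0.738 on the log2 scale against 0.521 to 0.611 in the other 19. It was below the other 3 libraries of its group in 21 members and above them in 13, with a median deviation of -0.43 for members longer than 3240 bases and 0.14 for shorter ones. The counts of 21 and 13 were taken for the members alone. A trend with length was not particular to them. The correlation of the deviation with log2 length was -0.450 over the 41 members and -0.378 over 12389 genes of at least 1 FPKM in 4 libraries. The part of depth, of the marker sums and of this library in the results was not tested, beyond values given with and without the library. In bulk RNA, fewer cells in S phase and less RNA of these genes per cell cannot be told apart.

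The untreated cells held these genes at very different levels. PCNA, the sliding clamp that holds polymerases on DNA, averaged 353 ± 13.2 FPKM (SD, n = 4), the highest of the 41. The flap endonuclease FEN1 (80.4 ± 5.30 FPKM), MCM7 (75.2 ± 1.73 FPKM), thymidylate synthase TYMS (61.5 ± 8.96 FPKM) and the ribonucleotide reductase subunit RRM1 (59.7 ± 1.37 FPKM) followed. TYMS and RRM1 did not differ beyond the spread of TYMS. At the low end were CDC25A (4.91 ± 1.22 FPKM), a phosphatase that activates CDK2, the checkpoint mediator CLSPN (4.20 ± 0.360 FPKM) and the activator E2F2 (2.74 ± 0.178 FPKM). RFC2 and POLD3 were the least even in the controls, with coefficients of variation of 28.2% and 27.1%, against 1.10% for LIG1.

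Together the members took 0.392 ± 0.0080% of all counts at 2 hours of eATP and 0.486 ± 0.0066% at 6 hours, against 0.472 ± 0.0045% in the controls (SD, n = 4 each). With TGF-β the share was 0.404 ± 0.0080% at 2 hours and 0.356 ± 0.0111% at 6 hours. Every library at 2 hours of either inducer and at 6 hours of TGF-β lay below every control, and every library at 6 hours of eATP lay above every control, the nearest values being 0.480% and 0.478%. These are shares of raw counts, without the library scaling (TMM) used in the tests below. Its factor was 1.012 for the library at 0.480% and 1.008 for the control at 0.478%, so that this narrow separation may not hold after scaling. At 6 hours of TGF-β the factors were 0.962 to 0.975, against 1.008 to 1.026 in the controls, so that the raw shares overstate the fall there.

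**Figure D1:**
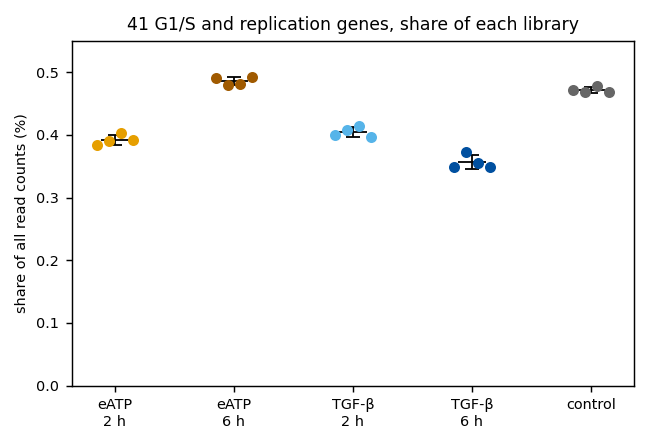
Share of all read counts that fell on the 41 genes (y axis, percent), with a point per library and the mean and SD as bars, n = 4 per group. The share was 0.383 to 0.403% at 2 hours and 0.480 to 0.492% at 6 hours of eATP, 0.397 to 0.414% at 2 hours and 0.349 to 0.372% at 6 hours of TGF-β, and 0.469 to 0.478% in the controls.

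After 2 hours of eATP, 17 of the 41 members fell and none rose, with the largest falls among those 17 in E2F2, the histone mRNA binding protein SLBP, E2F8 and ORC1. A gene was called at an adjusted p under 0.05 in edgeR's quasi-likelihood test, adjusted over all 20094 genes. Of all genes tested, 3.79% fell and 4.79% rose in this comparison. No member was higher at an unadjusted p under 0.05 in edgeR, and neither limma nor DESeq2 called one higher. The median log2(FC) was -0.30 over the members and -0.011 over all genes, and 25 members had all 4 treated libraries below all 4 controls, which 10.4% of all genes did. The calls of 13 members held when each of the 8 libraries was left out in turn. RRM1 lost its call without any one of them (adjusted p up to 0.146), E2F8 without any but control replicate 3 (0.106), SLBP without any but control replicate 4 or eATP 2 h replicate 4 (0.0794), and CDC6 without control replicate 1 or 2 or eATP 2 h replicate 2 or 4 (0.0911).

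At 6 hours of eATP a single member differed from the controls. EXO1, a 5′ to 3′ exonuclease of mismatch repair, rose with a log2(FC) of 0.42 ± 0.089, adjusted p = 0.0117 in edgeR's test. Of all genes tested, 1.71% rose and 1.28% fell, so that the 1 call among 41 members (2.44%) was near the share of all genes. No member was lower at an unadjusted p under 0.05, while 7 were higher at that level, and limma called 1 and DESeq2 3 members higher and none lower. The members had a median log2(FC) of 0.07 and all genes -0.013. Without eATP 6 h replicate 4 the call of EXO1 was lost (adjusted p = 0.0510), which left no called member.

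After 2 hours of TGF-β, 15 members fell and 1 rose. UHRF1, E2F8, DSCC1 and ORC1 fell the most, and the GINS subunit gene GINS3 rose. Of all genes tested, 5.67% fell and 7.25% rose. A median log2(FC) of -0.24 was found over the members and of 0.017 over all genes, and 17 members had all treated libraries below all controls, against 8.33% of all genes. Without TGF-β 2 h replicate 1 the counts were again 15 lower and 1 higher. Of these, 4 calls were lost on leaving out single libraries. MCM10 and GINS3 lost theirs without TGF-β 2 h replicate 4 or control replicate 1, 2 or 4 (adjusted p up to 0.0632 and 0.118), ORC6 without TGF-β 2 h replicate 2 or 4 or control replicate 2, 3 or 4 (0.108), and EXO1 without TGF-β 2 h replicate 1 or 4 or control replicate 1, 3 or 4 (0.143). A fit of these 2 groups alone called 8 members, all lower. Limma called 14 members lower and DESeq2 17, among them PCNA and SLBP (DESeq2 adjusted p = 0.0472 and 0.0289), which edgeR did not call.

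After 6 hours of TGF-β, 24 members fell and none rose, with the largest falls in E2F2, E2F8, ORC1 and MCM10. Of all genes tested, 7.76% fell and 8.4% rose, and no member was higher at an unadjusted p under 0.05 or by limma or DESeq2. The median log2(FC) was -0.41 over the members and -0.012 over all genes, and 32 members had all 4 treated libraries below all controls, against 14.4% of all genes. Limma on log2(FPKM + 0.1) called 28 members lower, adding CLSPN, CDC45, RRM1 and FEN1 to those of edgeR, and DESeq2 called 25, adding CLSPN. CDT1 lost its call without any one of the 8 libraries (adjusted p up to 0.0975), and MCM3 without TGF-β 6 h replicate 3 or 4 or control replicate 1, 3 or 4 (0.114). PCNA lost it without TGF-β 6 h replicate 1 or control replicate 3 (0.0585), and MCM5 (0.0584) and LIG1 (0.0514) without TGF-β 6 h replicate 1.

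**Figure D2:**
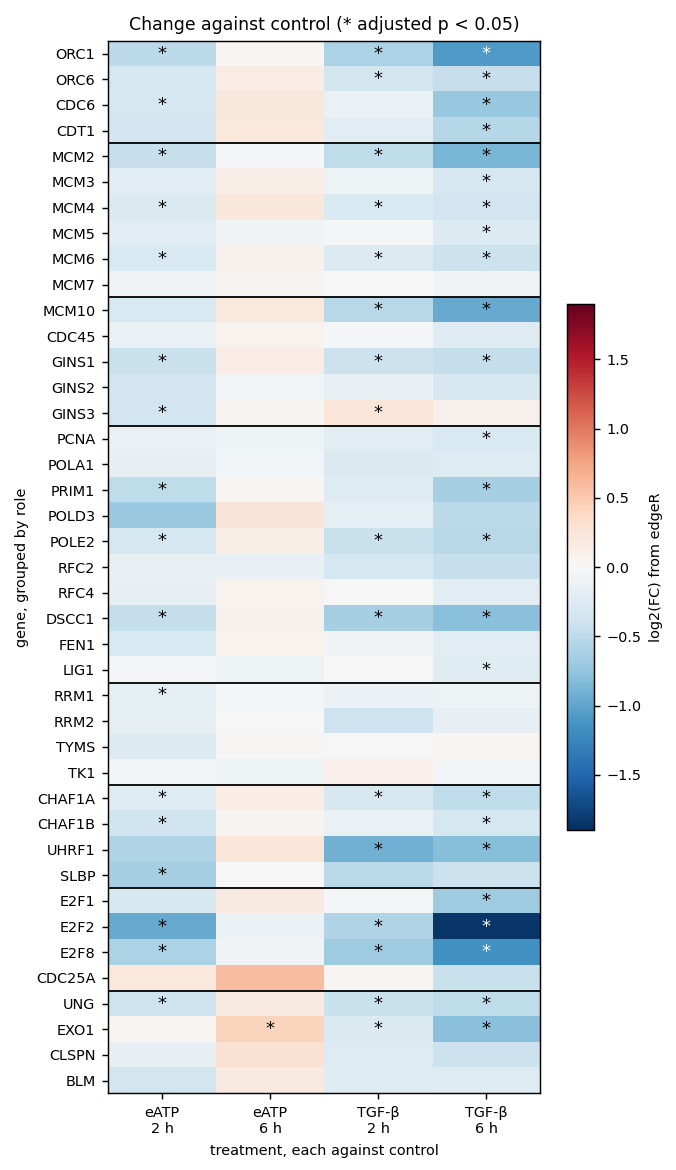
Fitted log2(FC) of each of the 41 genes (rows, grouped by role with lines between roles) in 4 comparisons with the controls (columns), blue for lower and red for higher, with a star where edgeR's adjusted p was under 0.05. Stars mark 17 genes at 2 hours and 1 at 6 hours of eATP, 16 at 2 hours and 24 at 6 hours of TGF-β, and the darkest cell is E2F2 at 6 hours of TGF-β (-1.84).

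The 4 origin licensing genes were all lower at 6 hours of TGF-β. ORC1, the largest subunit of the origin recognition complex, had 9.87, 10.2, 9.56 and 10.01 FPKM at 2 hours and 15.2, 15.02, 12.3 and 15.1 FPKM at 6 hours of eATP, against 15.3, 14.6, 12.9 and 14.2 FPKM in the controls. With TGF-β it had 8.74, 9.84, 9.68 and 8.67 FPKM at 2 hours and 7.13, 6.43, 5.11 and 6.84 FPKM at 6 hours. The libraries at 2 hours of either inducer lay below all controls, those at 6 hours of eATP overlapped them, and those at 6 hours of TGF-β were the lowest of all. Its log2(FC) was -0.50 ± 0.091 and 0.036 ± 0.091 at 2 and 6 hours of eATP, and -0.60 ± 0.091 and -1.08 ± 0.092 at 2 and 6 hours of TGF-β (± SE), with an edgeR adjusted p of 0.00113, 0.962, 1.38e-04 and 7.00e-08 in that order. CDC6, the ATPase that recruits the helicase with CDT1, had 19.2, 16.8, 19.3 and 16.7 FPKM at 2 hours and 28.2, 23.9, 22.9 and 31.5 FPKM at 6 hours of eATP, against 23.4, 25.3, 21.6 and 22.5 FPKM in the controls. It had 17.8, 22.7, 22.5 and 20.2 FPKM at 2 hours and 13.4, 12.9, 12.7 and 14.05 FPKM at 6 hours of TGF-β, and was called at the later time (-0.13, adjusted p = 0.427, at 2 hours and -0.73, adjusted p = 1.22e-05, at 6 hours). ORC6, another subunit of the complex, averaged 5.31 ± 0.574 FPKM at 6 hours of TGF-β and 7.61 ± 0.817 FPKM in the controls (log2(FC) -0.44, adjusted p = 0.00527). CDT1, the loading factor, averaged 4.09 ± 0.332 FPKM at 6 hours of TGF-β and 6.30 ± 0.209 FPKM in the controls, with a log2(FC) of -0.54 ± 0.17 that did not keep its call.

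The 6 subunits of the MCM2-7 helicase work as one ring, and their log2(FC) at 6 hours of TGF-β ran from -0.86 for MCM2 to -0.061 for MCM7. MCM2 had 14.6, 14.3, 13.96 and 12.8 FPKM at 2 hours and 18.4, 18.1, 18.02 and 18.7 FPKM at 6 hours of eATP, against 21.3, 19.3, 17.6 and 18.1 FPKM in the controls. With TGF-β it had 10.4, 14.8, 14.8 and 13.7 FPKM at 2 hours and 10.1, 9.32, 10.1 and 10.2 FPKM at 6 hours, all below every control. Its log2(FC) of -0.86 ± 0.085 at 6 hours of TGF-β (adjusted p = 4.54e-07) was also called without each library in turn. MCM6 (-0.41, adjusted p = 8.24e-06) and MCM4 (-0.37, 4.36e-04) fell there as well, and both also fell at 2 hours of eATP (-0.29 and -0.28) and of TGF-β (-0.25 and -0.29). MCM3 (-0.31) and MCM5 (-0.27) were called at 6 hours of TGF-β and at no other treatment against the controls, calls lost without single libraries (adjusted p up to 0.114 and 0.0584), and MCM7 (-0.061, adjusted p = 0.680) was called by edgeR in no comparison. MCM7 averaged 68.4 ± 2.08 FPKM at 6 hours of TGF-β and 75.2 ± 1.73 FPKM in the controls, the most abundant subunit throughout. The order of mean FPKM was MCM7, MCM3, MCM6, MCM4, MCM2 and MCM5 in the controls and at both times of eATP, and MCM5 stood above MCM2 at both times of TGF-β. The ratio of the most to the least abundant subunit was 5.30 and 5.27 at 2 and 6 hours of eATP, 5.51 and 6.90 at 2 and 6 hours of TGF-β and 4.84 in the controls.

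Of 5 genes that turn the loaded helicase on, MCM10 and GINS1 fell with TGF-β. MCM10, needed to activate the helicase and to keep DNA polymerase alpha on chromatin, had 5.75, 10.1, 10.9 and 8.41 FPKM at 2 hours and 6.50, 6.09, 5.05 and 7.28 FPKM at 6 hours of TGF-β, against 13.1, 13.7, 10.6 and 13.7 FPKM in the controls. With eATP it had 9.81, 11.4, 9.59 and 10.3 FPKM at 2 hours and 14.9, 15.9, 12.4 and 14.96 FPKM at 6 hours, neither of them called against the controls. The lowest of the libraries at 2 hours of TGF-β was replicate 1, and at 6 hours all 4 lay below every control (log2(FC) -0.96 ± 0.15, edgeR adjusted p = 9.25e-05). The GINS complex joins the helicase at the fork, and genes of 3 of its subunits were on the list. GINS1 averaged 18.5 ± 0.490 FPKM at 2 hours of eATP, 18.7 ± 1.23 and 17.4 ± 0.866 FPKM at 2 and 6 hours of TGF-β and 25.2 ± 1.16 FPKM in the controls, with edgeR's adjusted p at 4.84e-05, 5.80e-05 and 9.69e-06 in that order. GINS3 had 5.49, 5.10, 4.78 and 5.21 FPKM at 2 hours of eATP and 7.04, 7.54, 7.80 and 8.60 FPKM at 2 hours of TGF-β, against 6.58, 6.57, 7.22 and 6.41 FPKM in the controls. It was thus below every control with eATP (-0.36 ± 0.069, adjusted p = 0.00194), while with TGF-β 1 library lay within the range of the controls (0.23 ± 0.069, adjusted p = 0.0298, a call lost without TGF-β 2 h replicate 4 or control replicate 1, 2 or 4). By edgeR's test GINS2 and CDC45, at 17.4 ± 1.56 and 12.5 ± 1.19 FPKM in the controls, were not called against them, with a log2(FC) of -0.30 and -0.25 at 6 hours of TGF-β. Limma called CDC45 lower there (adjusted p = 0.0290).

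Among the 10 genes of polymerases, clamp and flap processing, PRIM1, POLE2 and DSCC1 fell with both inducers in calls that held without each library in turn. DSCC1, part of the alternative clamp loader that acts in sister chromatid cohesion, had 7.71, 10.3, 11.4 and 11.1 FPKM at 2 hours and 8.44, 8.67, 9.41 and 8.40 FPKM at 6 hours of TGF-β, against 15.8, 16.4, 16.5 and 15.2 FPKM in the controls. It had 11.04, 9.74, 12.4 and 12.6 FPKM at 2 hours of eATP and 17.7, 16.4, 16.7 and 16.3 FPKM at 6 hours, so that every library but those of the later eATP time lay below every control. Its log2(FC) was -0.46 ± 0.10 at 2 hours of eATP and -0.64 ± 0.10 and -0.80 ± 0.10 at 2 and 6 hours of TGF-β (edgeR adjusted p = 0.00561, 2.24e-04 and 1.10e-05). The primase subunit gene PRIM1 averaged 11.2 ± 0.496 FPKM at 6 hours of TGF-β and 18.4 ± 1.75 FPKM in the controls (log2(FC) -0.64, adjusted p = 9.74e-05), and POLE2, the second subunit of polymerase epsilon, averaged 5.73 ± 0.335 and 8.71 ± 0.556 FPKM (-0.53, adjusted p = 5.69e-05). Both also fell at 2 hours of eATP (-0.48 and -0.33). PCNA averaged 275 ± 21.4 FPKM at 6 hours of TGF-β and 353 ± 13.2 FPKM in the controls, and the ligase LIG1, which seals Okazaki fragments, averaged 7.72 ± 0.226 and 9.56 ± 0.105 FPKM, calls lost without TGF-β 6 h replicate 1 (adjusted p = 0.0514 for LIG1) and for PCNA also without control replicate 3 (up to 0.0585). FEN1, POLA1, RFC2, RFC4 and POLD3 were not called against the controls by edgeR, while limma called FEN1 lower at 2 hours of eATP and at 6 hours of TGF-β. RFC2 had 1 control at 32.6 FPKM beside 3 at 18.8 to 20.5 FPKM, and POLD3 1 control at 4.98 FPKM beside 3 at 9.20 to 9.76 FPKM, both times replicate 2.

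Of the 4 genes that supply deoxynucleotides, 1 was called against the controls by edgeR. RRM1 fell at 2 hours of eATP, averaging 52.4 ± 1.67 FPKM with eATP and 59.7 ± 1.37 FPKM in the controls (log2(FC) -0.17 ± 0.049, adjusted p = 0.0419), and this call was lost on leaving out any one library. RRM2, the small subunit of ribonucleotide reductase, ran 9.84 to 21.9 and 14.7 to 18.5 FPKM at 2 and 6 hours of eATP, 8.01 to 20.7 and 9.29 to 24.4 FPKM at 2 and 6 hours of TGF-β and 15.7 to 17.8 FPKM in the controls, all overlapping. TYMS averaged 59.9 ± 4.01 FPKM at 6 hours of TGF-β and 61.5 ± 8.96 FPKM in the controls (log2(FC) 0.038 ± 0.10), and thymidine kinase TK1 41.8 ± 7.54 and 45.8 ± 6.21 FPKM (-0.055 ± 0.16). A miss of the threshold does not show that levels were equal, and the SE of RRM2 at that time was 0.31 on the log2 scale.

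In the group for chromatin and histone supply, CHAF1A and CHAF1B, subunits of the histone chaperone that follows the fork, fell at 6 hours of TGF-β with a log2(FC) of -0.49 and -0.34 (edgeR adjusted p = 7.45e-06 and 8.02e-04), and at 2 hours of eATP with -0.24 and -0.39 (0.0138 and 4.58e-04). CHAF1B had 7.13, 6.48, 6.24 and 6.48 FPKM at 2 hours of eATP and 7.48, 7.74, 8.46 and 7.67 FPKM at 2 hours of TGF-β, against 9.25, 8.62, 8.96 and 8.11 FPKM in the controls. It was not called at 2 hours of TGF-β, where CHAF1A fell (log2(FC) -0.31, edgeR adjusted p = 0.00151). That call of CHAF1A was lost in a fit of the compared groups alone. UHRF1, which brings the maintenance DNA methyltransferase to new DNA, had 3.99, 6.87, 8.11 and 6.02 FPKM at 2 hours and 6.78, 5.91, 6.22 and 6.97 FPKM at 6 hours of TGF-β, against 10.9, 11.5, 14.2 and 10.9 FPKM in the controls. Both groups lay below the controls (log2(FC) -0.91 ± 0.20 and -0.80 ± 0.20, adjusted p = 0.00430 and 0.00812). With eATP it had 8.76, 6.79, 9.92 and 6.16 FPKM at 2 hours and 12.3, 19.1, 10.3 and 13.7 FPKM at 6 hours, with no call against the controls at either time. SLBP, which binds the stem loop of histone mRNAs, had 31.7, 30.6, 34.3 and 35.9 FPKM at 2 hours and 56.7, 58.1, 34.9 and 56.4 FPKM at 6 hours of eATP, against 50.8, 51.4, 56.8 and 48.3 FPKM in the controls. It had 36.98, 32.5, 36.2 and 36.4 FPKM at 2 hours and 23.3, 40.1, 46.9 and 38.1 FPKM at 6 hours of TGF-β. The libraries at 2 hours of either inducer lay below all controls, yet edgeR's adjusted p was 0.0261 with eATP, a call lost without 6 of the 8 libraries, and 0.0520 with TGF-β. DESeq2 called SLBP lower at 2 hours of TGF-β (adjusted p = 0.0289).

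The largest falls at 6 hours of TGF-β were those of E2F2 and E2F8. E2F2, an activator of G1/S transcription, had 1.66, 1.34, 1.29 and 1.25 FPKM at 2 hours and 2.61, 2.51, 2.12 and 2.79 FPKM at 6 hours of eATP, against 2.70, 2.56, 2.71 and 2.98 FPKM in the controls. It had 1.93, 1.87, 1.92 and 1.53 FPKM at 2 hours and 0.778, 0.681, 0.724 and 0.708 FPKM at 6 hours of TGF-β. The 4 libraries at 6 hours of TGF-β were the lowest of the 20, and those at 2 hours of either inducer also lay below every control. Its log2(FC) of -1.84 ± 0.12 at 6 hours of TGF-β (adjusted p = 1.29e-09) was the largest of any member against the controls, and -0.96 ± 0.11 at 2 hours of eATP (9.46e-06) the largest there. E2F8, a repressor that is itself induced in S phase, had 3.80, 3.27, 3.19 and 3.36 FPKM at 2 hours and 5.87, 4.82, 3.58 and 5.62 FPKM at 6 hours of eATP, against 5.69, 5.41, 4.50 and 5.50 FPKM in the controls. With TGF-β it had 1.98, 3.60, 4.05 and 3.43 FPKM at 2 hours, where replicate 1 was the lowest, and 2.48, 2.12, 1.83 and 2.59 FPKM at 6 hours, all below every control (log2(FC) -0.67 ± 0.18 and -1.15 ± 0.18, adjusted p = 0.0150 and 1.10e-04). E2F1, the best known activator of the family, had 25.9, 16.6, 18.2 and 17.4 FPKM at 2 hours and 10.7, 12.4, 14.2 and 11.2 FPKM at 6 hours of TGF-β, against 19.5, 19.8, 22.8 and 19.4 FPKM in the controls. TGF-β 2 h replicate 1 was the highest of its group and the later libraries lay below every control, with a log2(FC) of -0.030 ± 0.14 and -0.67 ± 0.14 (adjusted p = 0.934 and 0.00187). With eATP it had 16.3, 15.4, 17.1 and 16.01 FPKM at 2 hours and 20.7, 21.6, 26.4 and 21.8 FPKM at 6 hours, not called against the controls at either time. CDC25A was not called against the controls by edgeR, while DESeq2 called it higher at 6 hours of eATP (adjusted p = 0.0258), and it ran 5.90 to 8.40 FPKM at 6 hours of eATP, 2.80 to 4.14 FPKM at 6 hours of TGF-β and 3.16 to 5.90 FPKM in the controls.

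Of the 4 repair and checkpoint members, UNG and EXO1 changed against the controls. UNG, the glycosylase that removes uracil from DNA, had 35.8, 35.5, 33.7 and 34.8 FPKM at 2 hours and 52.6, 51.6, 53.6 and 49.6 FPKM at 6 hours of eATP, against 45.3, 48.5, 49.8 and 43.8 FPKM in the controls. With TGF-β it had 36.2, 32.3, 36.1 and 33.3 FPKM at 2 hours and 31.7, 31.8, 33.3 and 29.7 FPKM at 6 hours. The falls at 2 hours of eATP (-0.40, adjusted p = 4.62e-04) and at 2 and 6 hours of TGF-β (-0.42 and -0.49, 2.35e-04 and 2.35e-05) were called without each library in turn. EXO1 had 14.1, 13.2, 16.2 and 13.8 FPKM at 2 hours and 18.4, 17.7, 17.7 and 21.1 FPKM at 6 hours of eATP, against 15.2, 13.3, 13.9 and 14.4 FPKM in the controls. It had 9.16, 12.7, 12.4 and 11.8 FPKM at 2 hours and 7.78, 7.45, 7.61 and 8.23 FPKM at 6 hours of TGF-β. At 6 hours the fitted change was 0.42 ± 0.089 with eATP, called on all libraries and lost without eATP 6 h replicate 4 (adjusted p = 0.0510), and -0.79 ± 0.089 with TGF-β (adjusted p = 2.71e-06). CLSPN and the helicase gene BLM were not called against the controls by edgeR, with a log2(FC) of -0.41 and -0.25 at 6 hours of TGF-β. CLSPN was called lower there by limma (adjusted p = 0.0441) and by DESeq2 (0.0395).

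**Figure D3:**
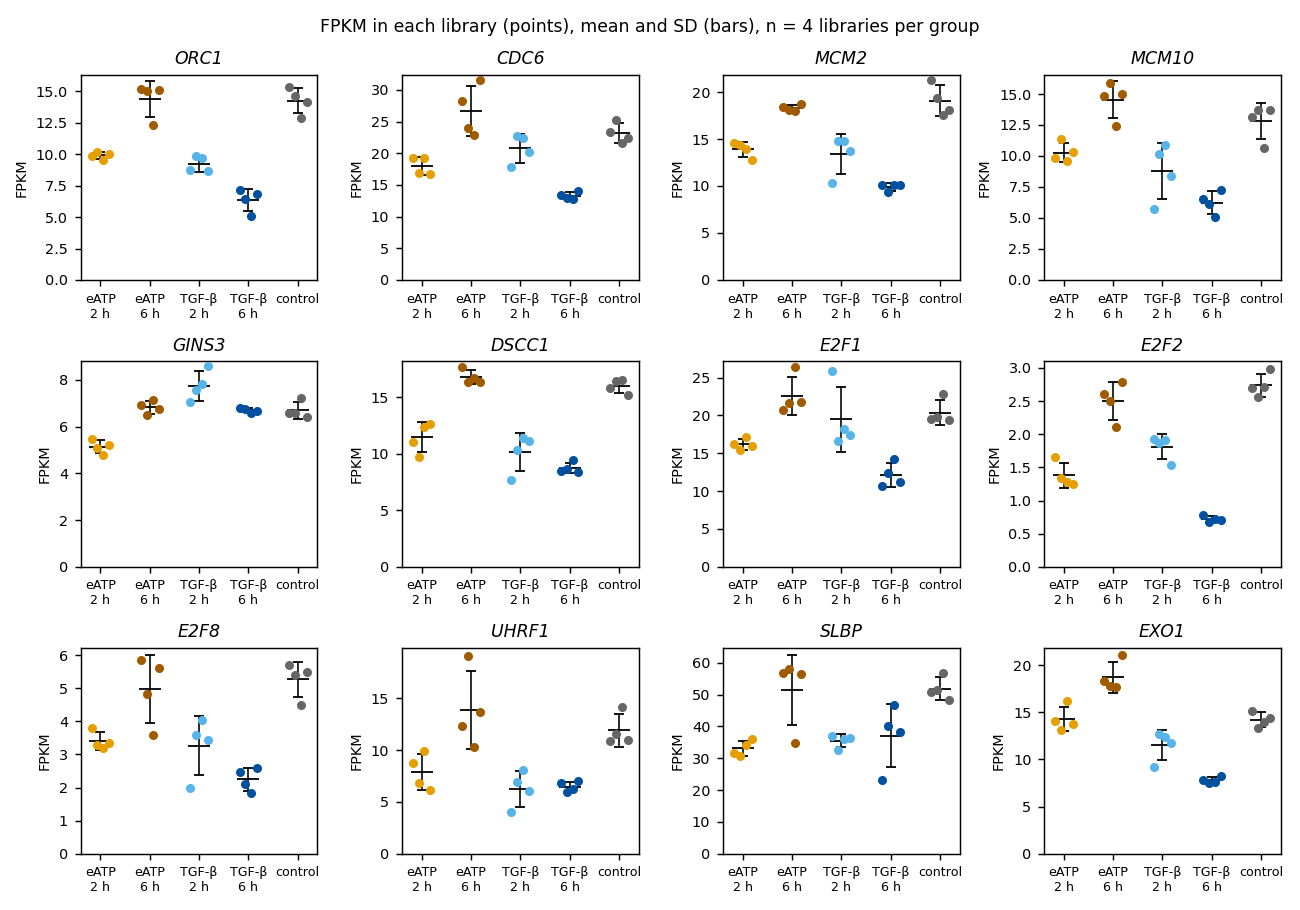
FPKM (y axis, from 0) of 12 members in each library, with the mean and SD as bars, n = 4 per group. E2F2 sits at 0.681 to 0.778 FPKM at 6 hours of TGF-β, against 2.56 to 2.98 FPKM in the controls, and EXO1 at 17.7 to 21.1 FPKM at 6 hours of eATP and 7.45 to 8.23 FPKM at 6 hours of TGF-β, against 13.3 to 15.2 FPKM in the controls.

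The times of one inducer share no library with those of the other, so the changes from 2 to 6 hours can be set side by side. With eATP, 25 members were higher at 6 than at 2 hours and none was lower, also at an unadjusted p under 0.05 and by limma and DESeq2, while 6.01% of all genes tested were higher and 6.57% lower. Across the members the median log2(FC) was 0.41 and -0.011 over all genes, and 31 members had all libraries at 6 hours above all at 2 hours, against 11.1% of all genes. Among the 25 called, the largest rises were in E2F2 (0.86 ± 0.11, adjusted p = 3.60e-05), UHRF1 (0.80 ± 0.20, adjusted p = 0.0111), SLBP (0.63 ± 0.17, adjusted p = 0.0181) and UNG (0.57 ± 0.066, adjusted p = 9.54e-06), and all 4 licensing genes rose. Calls were lost for CDT1 and CLSPN without any library but eATP 6 h replicate 2 (CDT1) or 3 (CLSPN), with adjusted p up to 0.139 and 0.134. MCM10 lost it without 6 of the 8 libraries, all but eATP 2 h replicate 2 and eATP 6 h replicate 3 (0.0827), MCM3 without eATP 2 h replicate 1 or 4 or eATP 6 h replicate 1, 3 or 4 (0.128), SLBP without eATP 2 h replicate 1 or 2 or eATP 6 h replicate 1, 2 or 4 (0.0573), E2F1 without eATP 2 h replicate 1, 2 or 4 or eATP 6 h replicate 3 (0.0998), FEN1 without eATP 2 h replicate 2 or eATP 6 h replicate 3 (0.0691) and UHRF1 without eATP 6 h replicate 2 (0.0509).

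With TGF-β the change ran the other way. At 6 hours 10 members were lower than at 2 hours and none was higher, also at an unadjusted p under 0.05 and by limma and DESeq2, while 6.58% of all genes tested were lower and 5.49% higher. For the members the median log2(FC) was -0.16 and for all genes -0.016, and 13 members did not overlap between the times, all lower, against 8.73% of all genes. E2F2 (-1.27 ± 0.11, adjusted p = 5.63e-07), E2F1 (-0.64 ± 0.14, adjusted p = 0.00428), CDC6 (-0.59 ± 0.093, adjusted p = 2.42e-04) and EXO1 (-0.51 ± 0.089, adjusted p = 6.67e-04) fell the most between the times. Without TGF-β 2 h replicate 1 the count was 17, and without TGF-β 2 h replicate 3 it was 7. A fit of both times of TGF-β alone called 3. MCM5, LIG1 and CHAF1B lost their calls without TGF-β 2 h replicate 3 or 4 and without 3 or 4 of the libraries at 6 hours (all 4 for MCM5, all but replicate 3 for LIG1 and all but replicate 1 for CHAF1B), with adjusted p up to 0.116, 0.0841 and 0.116. The genes CDC6, CHAF1B, E2F1, E2F2, EXO1, MCM2, ORC1 and PRIM1 were both higher with time in eATP and lower with time in TGF-β, which is 32.0% of the 25 and 80.0% of the 10, and LIG1 and MCM5 were called with TGF-β alone. Of all 20094 genes tested, 89 (0.443%) did so, which is 7.37% of the 1208 higher with time in eATP and 6.73% of the 1322 lower with time in TGF-β. Within the list, 61.0% of all 41 members were already higher with time in eATP. Whether the 80.0% exceeds that share was not tested.

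A test of the interaction of inducer and time asks whether the step from 2 to 6 hours differed between TGF-β and eATP. It was called for 23 members, all with a lower value for TGF-β. Of all genes tested, 3.02% had a lower and 3.1% a higher value for TGF-β, and no member was higher at an unadjusted p under 0.05 or by limma or DESeq2. The median difference was -0.56 on the log2 scale over the members and -0.015 over all genes. E2F2 differed by -2.13 ± 0.16 (edgeR adjusted p = 1.44e-07), CDC6 by -1.16 ± 0.13 (1.61e-05), E2F1 by -1.12 ± 0.20 (0.00116) and ORC1 by -1.02 ± 0.13 (5.22e-05). Without TGF-β 2 h replicate 1, 28 members were called. The difference was not called for any of the deoxynucleotide genes RRM1, RRM2, TYMS and TK1 (-0.12, 0.045, -0.23 and -0.12). Of the 23 calls, 18 held without each of the 16 libraries in turn. ORC6 lost its call without eATP 2 h replicate 2 or 4 or TGF-β 2 h replicate 3 (adjusted p up to 0.0553), MCM3 without replicate 1 or 4 of either eATP time or replicate 4 of either TGF-β time (0.0611), CDT1 without eATP 2 h replicate 1, 3 or 4, eATP 6 h replicate 3 or replicate 4 of either TGF-β time (0.0664), and MCM5 and FEN1 without any eATP library (for FEN1, any but eATP 6 h replicate 4), TGF-β 2 h replicate 4, or TGF-β 6 h replicate 1, 2 or, for MCM5, 3 and, for FEN1, 4 (0.0885 and 0.0843).

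**Figure D4:**
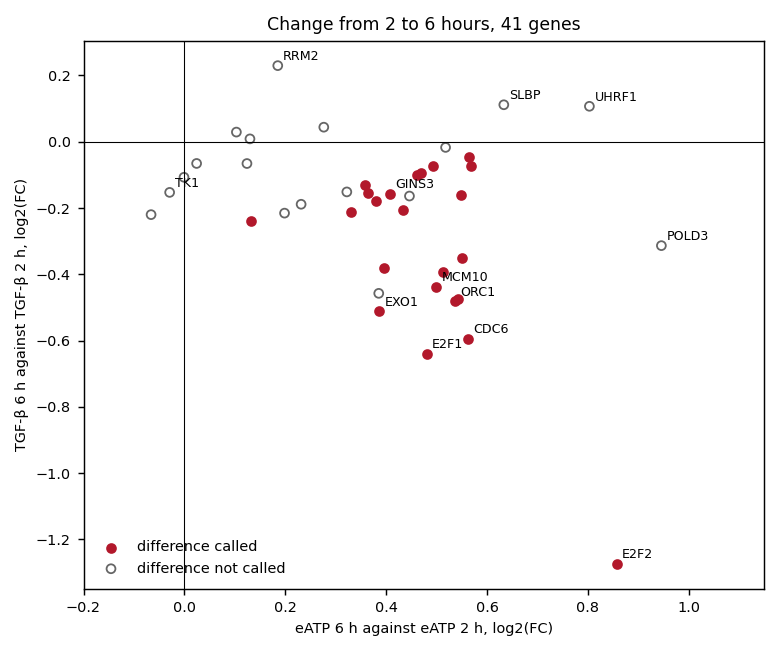
Change from 2 to 6 hours of each of the 41 genes with eATP (x axis, log2(FC)) and with TGF-β (y axis, log2(FC)), filled red where the interaction was called by edgeR's test and open where it was not. Most genes lie right of and below 0, with E2F2 lowest at 0.86 and -1.27, while RRM2 lies at 0.19 and 0.23 and POLD3, uneven between libraries, at 0.95 and -0.31 without a call.

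Set against each other at 2 hours, the inducers differed in a share of the members near that of all genes. TGF-β was higher than eATP for GINS3 (0.59 ± 0.069, adjusted p = 6.69e-06), E2F2 (0.40 ± 0.11, adjusted p = 0.0300) and CHAF1B (0.25 ± 0.063, adjusted p = 0.0135) and lower for EXO1 (-0.31 ± 0.089, adjusted p = 0.0306) in edgeR's test. Of the members 7.32% were thus higher and 2.44% lower, against 4.93% and 4.16% of all genes. The median log2(FC) of the members was 0.03, and 0.018 over all genes. GINS3 alone kept its call without each library in turn. E2F2 lost it without eATP 2 h replicate 2, 3 or 4 or TGF-β 2 h replicate 1, 2 or 3 (adjusted p up to 0.104), EXO1 without replicate 1 of either group, eATP 2 h replicate 3 or TGF-β 2 h replicate 4 (0.127) and CHAF1B without eATP 2 h replicate 3 (0.0547), so that without eATP 2 h replicate 3 only 1 call was left.

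At 6 hours, 25 members were lower with TGF-β than with eATP and none was higher, also at an unadjusted p under 0.05 and by limma and DESeq2, while 8.66% of all genes tested were lower and 8.97% higher. The median log2(FC) was -0.58 over the members and 0.015 over all genes, and in 33 members all TGF-β libraries lay below all eATP libraries, against 13.5% of all genes. E2F2 differed by -1.73 ± 0.11 (adjusted p = 2.73e-09), EXO1 by -1.21 ± 0.090 (1.17e-08), MCM10 by -1.17 ± 0.15 (1.05e-05) and ORC1 by -1.12 ± 0.092 (4.41e-08). CDC25A (-1.01, adjusted p = 3.66e-04) and CLSPN (-0.70, 0.00143), which edgeR did not call against the controls, were lower here, as were CDC45 (-0.32) and BLM (-0.42). The last 2 calls were lost without TGF-β 6 h replicate 4 or eATP 6 h replicate 4, for CDC45 also without TGF-β 6 h replicate 1 or 2 or eATP 6 h replicate 1 and for BLM without eATP 6 h replicate 2 (adjusted p up to 0.0991 and 0.0907). EdgeR called RFC2, POLD3, POLA1, GINS2, MCM7, RFC4, TK1, RRM2 and TYMS in no comparison, and of these DESeq2 called POLD3 higher at 6 than at 2 hours of eATP (adjusted p = 0.0243).

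Other genes of the replication machinery were tested in the same fit. Of 50 further replication genes (other origin, polymerase and fork proteins), 18 fell and 2 rose at 6 hours of TGF-β against the controls (all genes, 7.76% and 8.4%), 13 fell and 1 rose at 2 hours (5.67% and 7.25%), and 9 fell at 2 hours of eATP (3.79%). The rise at 2 hours of TGF-β was lost without TGF-β 2 h replicate 1, which left 12 lower and 0 higher, and limma did not call it. Their median log2(FC) at 6 hours of TGF-β was -0.21. RFC3, a clamp loader subunit, had 14.6, 14.8, 15.2 and 15.1 FPKM at 6 hours of TGF-β, against 26.1, 28.2, 26.4 and 25.7 FPKM in the controls (log2(FC) -0.76 ± 0.068, edgeR adjusted p = 1.65e-07), and GMNN, the inhibitor of CDT1, averaged 16.01 ± 1.59 FPKM at 2 hours of eATP and 23.5 ± 1.63 FPKM in the controls (-0.53, adjusted p = 0.0135). POLD4, a subunit of polymerase delta, rose at 6 hours of TGF-β (0.85, adjusted p = 0.0125). Of 25 repair and checkpoint genes of S phase, 7 fell at 6 hours of TGF-β by edgeR and 12 by limma or by DESeq2, among them XRCC2 (-0.95, 1.35e-04) and BRCA1 (-0.81, 0.0250), and 5 fell at 2 hours of eATP. The median log2(FC) of the 25 was -0.28 at 6 hours of TGF-β and -0.18 at 2 hours of eATP.

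Genes that control entry into S phase were called in both directions. Of 34 tested, 7 rose and 8 fell at 6 hours of TGF-β (limma, 4 and 9), against 8.4% and 7.76% of all genes. At 2 hours of either inducer 1 rose and 8 fell, against 7.25% and 5.67% of all genes with TGF-β and 4.79% and 3.79% with eATP, so that the single rise was below the share of all genes. Without TGF-β 2 h replicate 1, 2 rose and 8 fell at 2 hours of TGF-β. At 6 hours of eATP 3 rose and 1 fell (1.71% and 1.28% of all genes). These 34 had a median log2(FC) of -0.13 at 6 hours of TGF-β. CDKN1A, which encodes the CDK inhibitor p21, had 82.4, 66.6, 67.3 and 77.9 FPKM at 2 hours and 68.00, 70.95, 66.5 and 67.8 FPKM at 6 hours of TGF-β, against 28.9, 28.00, 33.1 and 29.8 FPKM in the controls, with no overlap (log2(FC) 1.32 ± 0.081 and 1.26 ± 0.081, adjusted p = 1.49e-09 and 1.67e-09). Cyclin E2, CCNE2, fell at both times of TGF-β (-1.26 and -1.02, 8.66e-04 and 0.00365). At 6 hours of eATP, cyclin D1, CCND1 (0.65 ± 0.061, adjusted p = 3.51e-06), and cyclin E1, CCNE1 (0.42 ± 0.089, adjusted p = 0.0133), rose. CDK6, the kinase that pairs with cyclin D, rose at both times of eATP (0.95 and 0.45, 1.94e-05 and 0.0412).

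Genes of mitosis were set beside those of replication. Of 35 genes of G2 and M phase, 20 fell at 2 hours of TGF-β (all genes, 5.67%) and 3 fell and 1 rose at 6 hours against the controls (7.76% and 8.4%), and 12 were higher at 6 than at 2 hours (5.49%). MKI67, the proliferation antigen Ki-67, had 8.21, 10.1, 11.2 and 9.69 FPKM at 2 hours and 18.8, 19.6, 16.9 and 23.7 FPKM at 6 hours of TGF-β, against 25.8, 20.5, 16.2 and 20.5 FPKM in the controls. It fell at 2 hours (-1.06, adjusted p = 0.00245) and was higher at 6 than at 2 hours (1.07, 0.00260). Without TGF-β 2 h replicate 1, 21 of the 35 fell at 2 hours, and 14 were higher and 1 lower at 6 than at 2 hours. The median log2(FC) of the 35 was -0.42 at 2 hours and -0.12 at 6 hours of TGF-β. With eATP, 15 fell at 2 hours (all genes, 3.79%) and 16 were higher at 6 than at 2 hours (6.01%), among them the cyclin F gene CCNF (-0.66 and 0.82, 4.48e-06 and 4.06e-07).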

How the data were processed

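The authors sequenced poly(A) RNA of A549 cells. HISAT2, StringTie and edgeR stand in the submitters' processing notes, with no version, and the genome build is not stated in them or in the paper. The authors deposited raw read counts, whole numbers for every gene in every library. In the same table stand FPKM values, which the authors scaled by transcript length and by the reads of a library. Groups came from the sample labels. These number 4 replicates a group, more than the paper states, and none was left out.

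The 20094 genes that reached 0.1 FPKM in 4 libraries entered edgeR 4.0.16 (R 4.3.3). Counts were scaled by TMM, and 1 model of 5 group means (15 residual degrees of freedom) gave quasi-likelihood tests, two-sided, with Benjamini-Hochberg adjustment over all 20094. SE is the log2(FC) divided by the root of F. FPKM served for levels and for overlap between groups and is not scaled by TMM.

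The members and gene lists were chosen with earlier results of these data known, from general knowledge. Called members with the largest change, up to 4 in each direction and comparison, are given by library, with MCM2 added after its values were seen, and up to 3 called genes per comparison are named from other lists. Marker lists covered A549 identity (8 of 9 genes tested) and epithelial, fibroblast, endothelial and immune cells. One marker of the immune list is not reported here. Alternatives were no filter, a filter of 1 FPKM, DESeq2 size factors, the DESeq2 test (DESeq2 1.42.0), limma 3.58.1 on log2(FPKM + 0.1), robust estimation, a replicate block, the compared groups alone and leaving out each library.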

Additional observations from a re-analysis of the deposited data

Results flagged for a closer look

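Within a group of 4 libraries, a library was singled out where its gap to the nearest of the others was above the critical share of the group's range in Dixon's test at 95%. Of 205 groups of a member's FPKM, 13 had such a library (6.34%), and chance gives about 1 in 20. The high ones were PCNA in control replicate 3 at 373 FPKM (the other 3 at 345 to 348), RFC2 in control replicate 2 at 32.6 FPKM (the other 3 at 18.8 to 20.5), RFC2 in eATP 6 h replicate 1 at 27.7 FPKM (the other 3 at 17.1 to 18.6), RFC4 in TGF-β 2 h replicate 1 at 16.5 FPKM (the other 3 at 12.4 to 13.01), CHAF1A in TGF-β 2 h replicate 3 at 12.1 FPKM (the other 3 at 10.8 to 10.96) and E2F1 in control replicate 3 at 22.8 FPKM (the other 3 at 19.4 to 19.8). The low ones were ORC1 in eATP 6 h replicate 3 at 12.3 FPKM (the other 3 at 15.02 to 15.2), MCM2 in TGF-β 6 h replicate 2 at 9.32 FPKM (the other 3 at 10.1 to 10.2), MCM3 in eATP 6 h replicate 2 at 42.7 FPKM (the other 3 at 49.3 to 50.6), MCM6 in eATP 6 h replicate 3 at 41.8 FPKM (the other 3 at 43.6 to 43.99), POLD3 in control replicate 2 at 4.98 FPKM (the other 3 at 9.20 to 9.76), SLBP in eATP 6 h replicate 3 at 34.9 FPKM (the other 3 at 56.4 to 58.1) and E2F2 in TGF-β 2 h replicate 4 at 1.53 FPKM (the other 3 at 1.87 to 1.93). Replicate 3 at 6 hours of eATP was low for ORC1, MCM6 and SLBP, and replicate 2 of the controls was low for POLD3 and high for RFC2. TGF-β 2 h replicate 1 was singled out in 1 gene.

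The change from 2 to 6 hours differed between TGF-β and eATP in 23 members by edgeR's test of the difference. The differences on the log2 scale, TGF-β minus eATP, were E2F2 -2.13, CDC6 -1.16, E2F1 -1.12, ORC1 -1.02, E2F8 -1.02, MCM10 -0.94, PRIM1 -0.90, CDT1 -0.90, EXO1 -0.90, MCM2 -0.78, DSCC1 -0.71, UNG -0.64, CHAF1B -0.64, GINS1 -0.61, MCM4 -0.57, GINS3 -0.56, ORC6 -0.56, CHAF1A -0.56, POLE2 -0.56, MCM3 -0.54, MCM6 -0.52, FEN1 -0.49 and MCM5 -0.37. All were below 0. Those of ORC6, MCM5, MCM3, CDT1 and FEN1 did not hold without each library in turn (adjusted p up to 0.0553, 0.0885, 0.0611, 0.0664 and 0.0843 in that order).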

How the results depend on the processing

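Over 9 comparisons there were 145 calls of members, and none changed sign under any alternative. Of the 145, 101 were called under every alternative and 110 without each library in turn. The number lost was 0 with a filter of 1 FPKM and with the DESeq2 test, 1 with DESeq2 size factors, 2 with robust estimation, 7 with limma, 17 with no filter and 23 with the compared groups alone. The number of members called moved by more than 1.5 times for eATP at 6 hours against controls with the DESeq2 test (3, against 1), with the compared groups alone for TGF-β at 2 hours against controls (8, against 16), for TGF-β at 6 against 2 hours (3, against 10) and for TGF-β against eATP at 2 hours (1, against 4), and there also with no filter (2). The cause was not tested. Leaving out each library gave 13 to 15 calls for eATP at 2 hours, 0 to 1 at 6 hours, 12 to 16 for TGF-β at 2 hours and 20 to 23 at 6 hours, 19 to 22 between the times of eATP, 7 to 17 between those of TGF-β, 1 to 3 and 23 to 27 between the inducers at 2 and 6 hours, and 18 to 28 for the difference in time course. With the replicate number as a block, 134 of the 145 calls were kept and 11 lost. No source says whether the numbers pair the libraries. The correlations of same-numbered libraries were -0.105 to 0.0888 over 40 pairs, against -0.164 to 0.175 over 120 other pairs. Of the 20 libraries, 5 correlated best with their own number. These values show no deviation shared by number, but cannot tell how the numbers were given.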
